A study of Mus musculus with 30 samples.

Results

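Mobp, Has2, Lrrc15 and Atp1a4 are 4 of the 55421 genes counted in mouse embryonic stem cells, and they were chosen by their treatment responses, which had opposite directions in different lines. Genes were ranked by the difference between 2 lines' responses, separately for higher and lower differences. Mobp ranked first in its direction between the PDS5AB-NIPBL and PDS5AB responses, Has2 between WAPL-NIPBL and WAPL, Lrrc15 between PDS5AB and WAPL, and Atp1a4 between WAPL and TIR1. Mobp was also first for WAPL-NIPBL against PDS5AB and for PDS5AB against TIR1. The comparisons behind the choice of Lrrc15 and Atp1a4 are not stated and were taken to be those in which each ranked first. The responses of a gene in the lines of those comparisons are given as a description, with a standard error and no test. The other responses were tested, but they too may have been seen in the choice. Within its direction Lrrc15 ranked 3 and Atp1a4 ranked 2 for WAPL-NIPBL against TIR1, and Has2 ranked 2 for PDS5AB-NIPBL against WAPL-NIPBL. Lrrc15 also ranked 3 for WAPL against TIR1 and for WAPL-NIPBL against PDS5AB, and 6 for PDS5AB-NIPBL against WAPL. Atp1a4 ranked 10 for PDS5AB against TIR1, and Mobp ranked 9 for PDS5AB-NIPBL against WAPL and 11 for WAPL-NIPBL against WAPL. Their p-values are therefore not independent evidence of opposite directions. All 4 genes passed the filter on low counts that left 19868 genes for testing.

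The cells were E14 embryonic stem cells, a male line of 129P2/Ola background, grown in serum with leukemia inhibitory factor and the inhibitors PD0325901 and CHIR-99021. Every line expresses Tir1, the plant protein that marks an auxin-inducible degron (AID) fusion for destruction once auxin is added. The TIR1 line has no degron fusion. The PDS5AB line has AID on PDS5A and PDS5B, while WAPL itself has the AID in the line of that name. Both NIPBL lines, PDS5AB-NIPBL and WAPL-NIPBL, add an FKBP degron on NIPBL, destroyed with dTAG-13, and carry RAD21, a core part of cohesin, with a HaloTag. Treated cells received 500 µM auxin for 24 h, with 500 nM dTAG-13 in both NIPBL lines. Untreated cells were the controls, and each of the 10 groups had 3 libraries. Each genotype is a single named cell line, so a property of the genotype and of the clone cannot be told apart. The labels do not say whether replicates were separate cultures, so the p-values measure the spread between these libraries only.

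Cohesin is a ring complex that extrudes chromatin loops. NIPBL helps it load and extrude, WAPL releases it from chromatin, and PDS5A and PDS5B bind the ring and take part in both its release and its stalling at boundaries. The 4 genes belong to other tissues. Mobp encodes a small basic protein of central myelin made by oligodendrocytes. Has2 encodes a plasma membrane synthase of hyaluronan, a long matrix sugar. Lrrc15 encodes a leucine-rich repeat membrane protein of activated fibroblasts and bone-forming cells. Atp1a4 encodes the sodium pump alpha subunit of sperm.

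Coordinates are GRCm38, with GENCODE vM23 gene models. Mobp (ENSMUSG00000032517.16) spans chromosome 9 from 120149707 to 120181484 on the plus strand, and Has2 (ENSMUSG00000022367.7) spans chromosome 15 from 56665627 to 56694539 on the minus strand. Lrrc15 (ENSMUSG00000052316.9) spans chromosome 16 from 30269302 to 30283256 on the minus strand, and Atp1a4 (ENSMUSG00000007107.6) spans chromosome 1 from 172223513 to 172258414 on the minus strand. They lie on 4 chromosomes, so no locus is shared among them. RefSeq promoters on GRCm38.p6, taken from 250 bases before to 50 bases after the start, were matched for 3 of the 4 genes, and Has2 was not matched. They are printed 5′ to 3′ on the gene's own strand with CpG dinucleotides in capitals, because CpG content separates the Lrrc15 start from the others. The windows are chr9:120149492-120149791 on the plus strand, chr16:30283205-30283504 on the minus strand and chr1:172258375-172258674 on the minus strand.
Mobp: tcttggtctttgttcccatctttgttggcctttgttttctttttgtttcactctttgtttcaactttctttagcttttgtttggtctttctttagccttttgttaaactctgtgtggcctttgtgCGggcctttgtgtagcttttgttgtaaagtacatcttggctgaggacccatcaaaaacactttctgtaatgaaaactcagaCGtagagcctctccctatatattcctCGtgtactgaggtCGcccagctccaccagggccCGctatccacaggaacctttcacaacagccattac
Lrrc15: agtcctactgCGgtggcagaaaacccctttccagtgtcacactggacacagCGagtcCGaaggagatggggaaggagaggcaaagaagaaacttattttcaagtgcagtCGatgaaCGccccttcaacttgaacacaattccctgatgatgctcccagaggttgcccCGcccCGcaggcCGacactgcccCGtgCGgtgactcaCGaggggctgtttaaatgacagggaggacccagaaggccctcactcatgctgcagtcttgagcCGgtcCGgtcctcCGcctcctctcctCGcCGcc
Atp1a4: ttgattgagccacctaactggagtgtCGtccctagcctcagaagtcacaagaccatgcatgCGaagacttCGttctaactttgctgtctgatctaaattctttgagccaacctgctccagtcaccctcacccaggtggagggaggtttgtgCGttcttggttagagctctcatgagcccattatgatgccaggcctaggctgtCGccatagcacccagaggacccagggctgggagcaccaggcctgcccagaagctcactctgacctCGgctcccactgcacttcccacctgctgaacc
The Mobp window held 5 CpG and 43.3% G or C, and 43.6% of the 32851 promoters of the same length had as few CpG. The Atp1a4 window held 6 CpG at 55.7% G or C, with 47.9% of promoters at or below it. The Lrrc15 window held 16 CpG at 58.7% G or C, with 68.6% of promoters at or below it. The median promoter held 7 CpG and 52.7% G or C. None of these 3 windows held the TATA box letters TATAAA on either strand, which 13.6% of all promoters held. None held CCAAT, present in 37.4% of promoters, on either strand. None held GCGTG, present in 32.4%.

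Library totals ran from 19632704 to 45539021 fragments, and replicates of a group correlated at r of at least 0.987. The labels number the libraries, and 9 of them (untreated TIR1 and both PDS5AB groups) carry numbers up to 21, while the rest start at 25. The TIR1 response and the untreated levels of the WAPL and both NIPBL lines against TIR1 cross this break, so that library series and group cannot be told apart there. Embryonic stem cell markers were present in every group: 8 of 8 were tested, from 109 CPM for Klf4 to 1640 CPM for Tfcp2l1 as group means (CPM, the count scaled to library size with TMM factors). Their summed level was 6240 to 7000 CPM in untreated libraries, 6190 to 6610 in treated TIR1, 4170 to 4530 in treated PDS5AB and 4940 to 5150 in treated WAPL. It was 5590 to 5940 in treated PDS5AB-NIPBL and 5330 to 5490 in treated WAPL-NIPBL. In these bulk samples, fewer cells of a type and less RNA per cell cannot be told apart. Several markers of the tissues in which the 4 genes are known were near 0: no library had over 7 counts of Olig2 or 6 of Opalin (oligodendrocytes), 4 of Dcn or 7 of Lum (fibroblasts), or 5 of Prm1 and 2 of Prm2 (sperm). Other markers on the same lists were expressed, with group means of 22.1 to 40.7 CPM for Cnp and 4.12 to 16.3 CPM for Myrf (oligodendrocytes), 1.74 to 17.1 CPM for Pdgfra and 1.56 to 13.4 CPM for Thy1 (fibroblasts), and 5.58 to 47 CPM for Dazl and 4.76 to 14.3 CPM for Ddx4 (germ line).

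Markers of early lineages moved with treatment as well. The sum of 4 primitive endoderm markers was 3.08 to 4.59 CPM before and 5.88 to 8.06 CPM after treatment in TIR1, 12.7 to 13.6 against 23.8 to 26.1 CPM in PDS5AB, and 3.92 to 4.23 against 6.87 to 8.24 CPM in WAPL. It was 6.75 to 8.03 against 20.7 to 22.2 CPM in PDS5AB-NIPBL, and 4.12 to 4.36 against 9.56 to 10.5 CPM in WAPL-NIPBL. Treated libraries were thus above untreated ones in all 5 lines. The sum of 4 mesoderm markers was 9.56 to 12.4 against 15 to 18 CPM in WAPL, 14.2 to 17 against 18.4 to 23.4 CPM in WAPL-NIPBL, and 19.5 to 31.2 against 17.2 to 19 CPM in PDS5AB. In TIR1 and PDS5AB-NIPBL the mesoderm sums overlapped. The part of these markers in the values of the 4 genes was not tested.

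Mobp covered the widest range of the 4 genes among treated cells, 58.3-fold between the highest and lowest treated group means, and 5.23-fold among untreated ones. It was higher after treatment in the TIR1 line and both NIPBL lines, and lower in the PDS5AB and WAPL lines. In untreated PDS5AB cells it stood at 5.26, 8.83 and 8.53 CPM, and after auxin at 0.746, 1.05 and 1.34 CPM, from 20 to 41 counts. All treated libraries lay below all untreated ones, and the log2 change was -2.84 (SE 0.238), or 7.15-fold lower. In PDS5AB-NIPBL cells the untreated values were 22.5, 17.5 and 15.7 CPM and the treated ones 40.7, 34.9 and 28.9 CPM. Here every treated library was above every untreated one, with a log2 change of 0.91 (SE 0.159). Both lines carry the PDS5A and PDS5B degrons, and their treated means were 1.04 ± 0.297 and 34.8 ± 5.9 CPM (SD, n = 3). These lines fall on opposite sides of the library-number break, but each response lies within a side.

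The WAPL response of Mobp was in none of the 3 comparisons in which Mobp ranked first, and was tested. That response may still have been seen in the choice of the gene. Within its direction Mobp ranked 9 for PDS5AB-NIPBL against WAPL and 11 for WAPL-NIPBL against WAPL. The p-value given here is therefore not independent evidence of an opposite direction. Untreated WAPL cells held 21.2, 21.1 and 18.8 CPM of Mobp, and treated cells held 5.60, 8.30 and 7.80 CPM. The groups did not overlap, and Mobp fell by 1.48 on the log2 scale (SE 0.171, 2.80-fold lower, adjusted p = 5.5e-08). Every adjusted p here comes from the quasi-likelihood F-test of edgeR and is adjusted over all tested genes by the Benjamini-Hochberg method. In that line 32.8% of tested genes were called, 15.8% lower and 17% higher. In WAPL-NIPBL cells Mobp went from 39.2, 37.5 and 41.4 CPM to 56.1, 59.4 and 66.2 CPM, a log2 change of 0.62 (SE 0.152). In TIR1 cells it went from 7.09, 11.2 and 9.79 CPM to 18.8, 17.2 and 16.9 CPM, a log2 change of 0.92 (SE 0.168), with no overlap. In that control line only auxin differed between the groups by label, and the change crosses the library-number break.

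The order of Mobp levels put WAPL-NIPBL treated first and PDS5AB treated last. Untreated WAPL-NIPBL (39.4 ± 1.98 CPM) overlapped treated PDS5AB-NIPBL. Untreated WAPL (20.4 ± 1.37), untreated PDS5AB-NIPBL (18.5 ± 3.53) and treated TIR1 (17.6 ± 1.01) formed a middle set whose neighbours overlapped. Untreated TIR1 (9.37 ± 2.10), untreated PDS5AB (7.54 ± 1.98) and treated WAPL (7.23 ± 1.44) formed a lower one. The summed level of the 10 oligodendrocyte markers, most of it Cnp, overlapped before and after auxin in both lines where Mobp fell: it was 64 to 65.7 CPM in untreated and 60.9 to 66.6 CPM in treated PDS5AB libraries, and 44.5 to 45.4 against 42.1 to 45.2 CPM in WAPL. In the other 3 lines, where Mobp was higher after treatment, the sum was lower without overlap: 52.1 to 53.9 against 42.7 to 44.8 CPM in TIR1, 55.5 to 60 against 49.7 to 54 CPM in PDS5AB-NIPBL and 46.3 to 48.4 against 40.9 to 44.8 CPM in WAPL-NIPBL. Of the 10 markers 8 were tested, and Mbp, Myrf and Sox10 were called in PDS5AB and in WAPL, in both directions. Mbp, a major protein of central myelin, rose by 0.53 in PDS5AB (SE 0.149, adjusted p = 0.00386) and by 0.54 in WAPL (SE 0.150, adjusted p = 0.00539), where Mobp fell. The WAPL call of Mbp was lost without treated replicate 1 (0.38, adjusted p = 0.0573). Myrf, the transcription factor of myelin genes, fell by 0.40 in PDS5AB (SE 0.149, adjusted p = 0.0267) and by 0.47 in WAPL (SE 0.161, adjusted p = 0.0247) on the log2 scale. The Myrf call in PDS5AB was lost without untreated replicate 1 (-0.20, adjusted p = 0.286), treated replicate 2 (-0.36, adjusted p = 0.0897) or treated replicate 3 (-0.41, adjusted p = 0.0598). The one in WAPL was lost without treated replicate 1 (-0.36, adjusted p = 0.126), treated replicate 2 (-0.48, adjusted p = 0.0542) or untreated replicate 3 (-0.34, adjusted p = 0.158), and in a fit of these groups alone (adjusted p = 0.0513). Sox10, a transcription factor of the oligodendrocyte lineage, fell by 2.05 in WAPL (adjusted p = 0.0278) and rose by 1.31 in PDS5AB (adjusted p = 0.0197), with no group mean above 0.725 CPM. Its WAPL call was lost without treated replicate 1 or 2 or untreated replicate 2 or 3 (adjusted p from 0.0673 to 0.112), and its PDS5AB call without untreated replicate 1 or treated replicate 2 (adjusted p = 0.112 and 0.107). The part of these markers in the Mobp values was not tested.

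**Figure D1:**
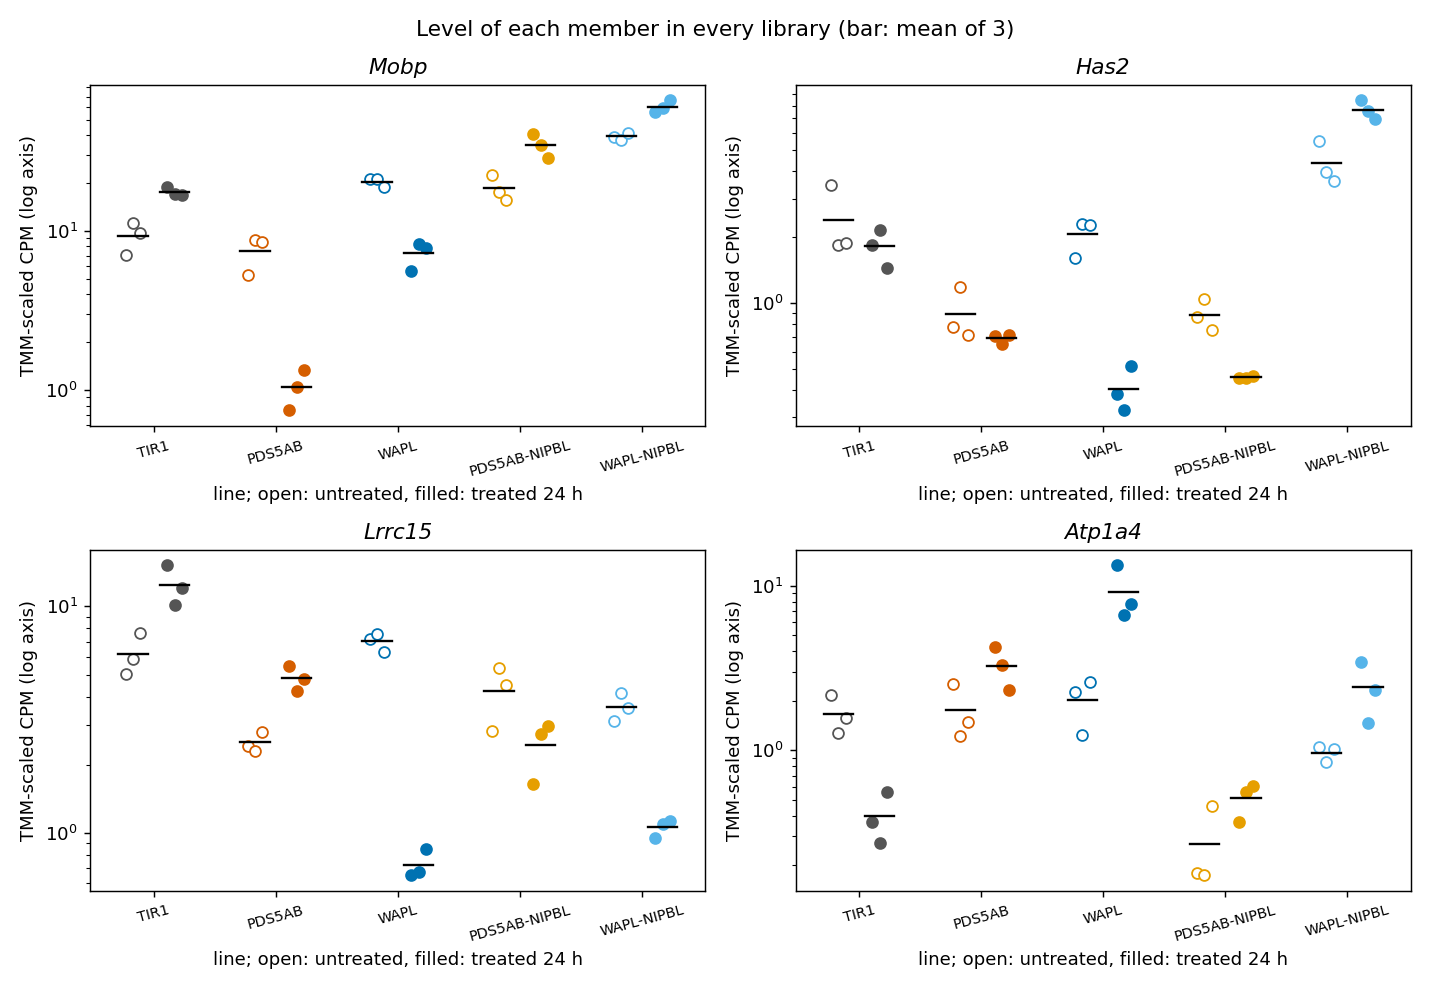
Each panel plots 1 gene: TMM-scaled CPM on a log axis for every library of the 5 lines, open points untreated, filled points treated for 24 h, bars the mean of 3. Mobp in treated PDS5AB cells lies at 0.746 to 1.34 CPM, far below every other group, while Has2 is highest in treated WAPL-NIPBL cells and Atp1a4 in treated WAPL cells.

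Has2 fell after treatment in WAPL cells and rose in WAPL-NIPBL cells. Untreated WAPL libraries held 1.61, 2.29 and 2.28 CPM of Has2, and treated ones 0.383, 0.323 and 0.514 CPM, which rest on 10, 11 and 17 counts. The log2 change was -2.32 (SE 0.286, 4.99-fold lower), with no overlap. WAPL-NIPBL libraries held 5.5, 3.98 and 3.63 CPM before treatment and 8.44, 7.56 and 6.97 CPM after it, a log2 change of 0.81 (SE 0.203). The 3 treated WAPL-NIPBL libraries were the highest of all 30.

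The other Has2 responses were tested, and 1 of 3 passed. They too may have been seen in the choice of Has2, so their p-values are not independent evidence of opposite directions. In PDS5AB-NIPBL cells Has2 was 0.861, 1.04 and 0.753 CPM before and 0.455, 0.455 and 0.466 CPM after treatment. It fell by 0.93 on the log2 scale (SE 0.334, adjusted p = 0.0485), on 9 to 13 counts per treated library, where 19.5% of genes were called and 8.06% were lower. That call was lost without each of the 6 libraries in turn, with changes from -1.04 to -0.81 and adjusted p from 0.057 to 0.144. It was also lost without the filter on low counts (adjusted p = 0.0734) and in a fit of these groups alone (adjusted p = 0.0576). In PDS5AB cells Has2 was 0.776, 1.19 and 0.717 CPM before and 0.709, 0.653 and 0.718 CPM after auxin, with overlap (log2 change -0.36, SE 0.289, adjusted p = 0.328, and -0.10 without untreated replicate 2). In TIR1 cells it was 3.45, 1.85 and 1.88 CPM before and 1.85, 2.15 and 1.45 CPM after auxin (log2 change -0.40, SE 0.227, adjusted p = 0.228). Without the first untreated TIR1 library, the 1 at 3.45 CPM, that change was 0.00.

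Untreated levels of Has2 already differed between lines. Against untreated TIR1 (2.39 ± 0.918 CPM), Has2 was 2.7-fold lower in untreated PDS5AB cells (0.894 ± 0.258 CPM, log2 difference -1.43, SE 0.251, adjusted p = 3.69e-05), where 32% of genes were called. It was 2.73-fold lower in untreated PDS5AB-NIPBL cells (0.886 ± 0.147 CPM, log2 difference -1.45, SE 0.258, adjusted p = 5.87e-05), where 34.3% were called. In both lines all untreated libraries lay below the 3 TIR1 libraries. The first of these comparisons lies within the low library numbers, and the second crosses the break. Untreated WAPL cells (2.06 ± 0.393 CPM) overlapped TIR1, and untreated WAPL-NIPBL cells (4.37 ± 0.991 CPM) were above it in every library.

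Lrrc15 rose in PDS5AB cells and fell in WAPL cells. PDS5AB libraries held 2.43, 2.31 and 2.79 CPM of Lrrc15 before auxin and 5.48, 4.25 and 4.8 CPM after it, a log2 change of 0.94 (SE 0.208) with no overlap. WAPL libraries held 7.20, 7.58 and 6.30 CPM before and 0.652, 0.675 and 0.847 CPM after it, a log2 change of -3.26 (SE 0.243), or 9.61-fold lower. Treated WAPL cells were the lowest of the 10 groups, although their untreated counterparts were second highest.

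The responses of Lrrc15 in the other 3 lines were tested, and all were called. These responses may have been seen in the choice of the gene. Their p-values are therefore not independent evidence of opposite directions. In TIR1 cells Lrrc15 went from 5.03, 5.86 and 7.66 CPM to 15.2, 10.1 and 12 CPM. It rose by 1.00 on the log2 scale (SE 0.187, adjusted p = 0.000267), in a comparison across the library-number break where 19.9% of genes were called, 10.4% higher and 9.59% lower. In WAPL-NIPBL cells it went from 3.13, 4.16 and 3.56 CPM to 0.952, 1.10 and 1.13 CPM. It fell by 1.76 on the log2 scale (SE 0.242, 3.38-fold lower, adjusted p = 8.95e-06), where 8.57% of genes were called, 3.45% lower and 5.11% higher. In PDS5AB-NIPBL cells it went from 2.83, 5.35 and 4.49 CPM to 1.64, 2.73 and 2.97 CPM, and the first untreated library lay within the treated range. It fell by 0.77 on the log2 scale (SE 0.221, adjusted p = 0.0123). That last call was lost without treated replicate 1 (log2 change -0.55, adjusted p = 0.115), untreated replicate 2 (-0.58, adjusted p = 0.0953) or untreated replicate 3 (-0.71, adjusted p = 0.0525), and in a fit of these groups alone (adjusted p = 0.0762).

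The response of Lrrc15 had 1 sign in PDS5AB cells and the other in PDS5AB-NIPBL cells, and it fell in both lines with a WAPL degron. The difference between responses is given without a test, since the gene was chosen for such differences. It was -1.77 on the log2 scale for PDS5AB-NIPBL minus TIR1 (SE 0.289) and -2.76 for WAPL-NIPBL minus TIR1 (SE 0.306), with the TIR1 response crossing the library-number break. Untreated levels were compared with those of TIR1 (6.18 ± 1.34 CPM). Untreated PDS5AB cells were furthest below it, at 2.51 ± 0.247 CPM (log2 difference -1.30, SE 0.207, given without a test), with every library below the TIR1 ones and both groups on the same side of the library-number break. Untreated WAPL cells (7.03 ± 0.659 CPM) overlapped TIR1. Lrrc15 was lower in untreated PDS5AB-NIPBL cells (4.23 ± 1.28 CPM, log2 difference -0.56, SE 0.200, adjusted p = 0.0302), where 34.3% of genes were called, although the libraries overlapped those of TIR1. It was also lower in untreated WAPL-NIPBL cells (3.62 ± 0.518 CPM, log2 difference -0.77, SE 0.203, adjusted p = 0.00504), where 28% of genes were called and no library overlapped. Both of these tested comparisons cross the break. In both NIPBL lines the lower untreated level lost its call without untreated TIR1 replicate 3 (log2 differences -0.37 and -0.58, adjusted p = 0.209 and 0.0561). The PDS5AB-NIPBL one also lost it without its own untreated replicate 1 (-0.32, adjusted p = 0.238) or replicate 3 (-0.60, adjusted p = 0.0515), and in a fit of these groups alone (adjusted p = 0.0634).

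Fibroblast markers moved with Lrrc15 in some lines and against it in another. The summed level of the 8 markers was 24.5 to 25.6 CPM in untreated and 32.7 to 33.3 CPM in treated PDS5AB libraries, and 15.3 to 15.7 against 8.54 to 9.28 CPM in WAPL. In PDS5AB-NIPBL it was 12.6 to 16.2 CPM before and 26.3 to 28.6 CPM after treatment, while Lrrc15 fell. In WAPL-NIPBL (12.3 to 14.7 against 13.6 to 14.5 CPM) and TIR1 (15.5 to 20 against 13.7 to 19.2 CPM) the sums overlapped. Pdgfra, also a primitive endoderm marker, is among the 8, and Dcn, Lum, Col3a1 and Twist2 were too low to test. The part of these markers in the Lrrc15 values was not tested.

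**Figure D2:**
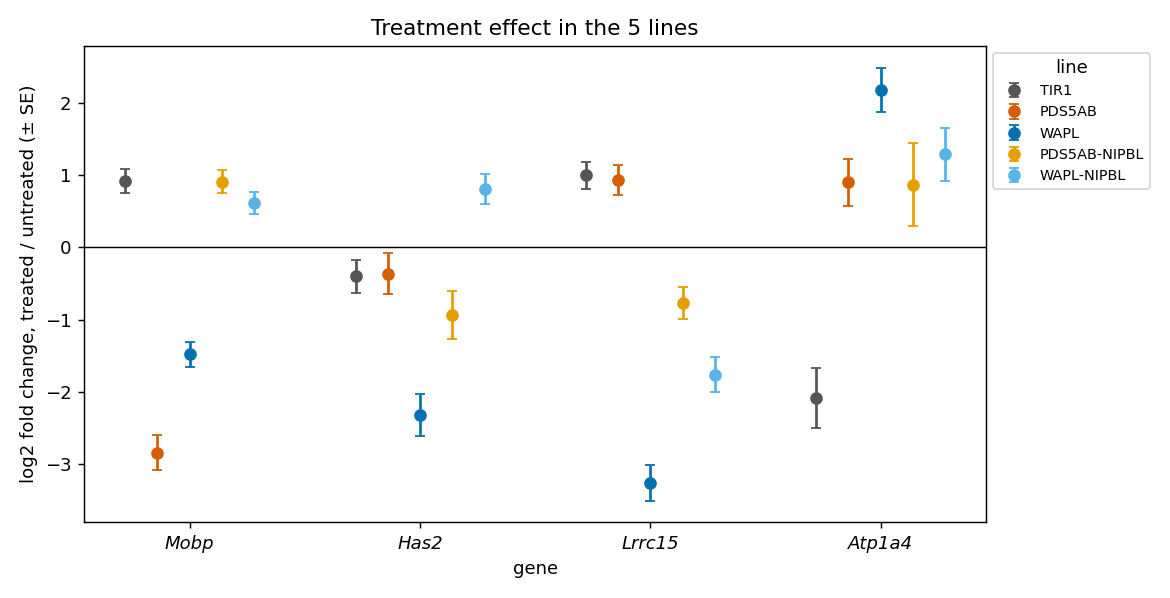
Log2 fold change of treated over untreated cells with its standard error (bars, from edgeR), for the 4 genes in each of the 5 lines, 3 libraries per group. Each gene has points on both sides of 0: Mobp runs from -2.84 in PDS5AB to 0.92 in TIR1, and Lrrc15 from -3.26 in WAPL to 1.00 in TIR1.

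Atp1a4 was the one gene whose opposite direction came from the control line. In TIR1 cells it went from 2.17, 1.28 and 1.56 CPM to 0.365, 0.271 and 0.555 CPM, which rest on 12, 12 and 21 counts, a log2 change of -2.08 (SE 0.413) with no overlap. In WAPL cells it went from 2.25, 1.23 and 2.60 CPM to 13.3, 6.60 and 7.71 CPM, a log2 change of 2.18 (SE 0.310), or 4.52-fold higher. The TIR1 comparison crosses the library-number break and the WAPL one does not.

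The other 3 Atp1a4 responses were all upward, and 2 of them were called. They too may have been seen in the choice of Atp1a4, so their p-values are not independent evidence of opposite directions. In PDS5AB cells it went from 2.53, 1.22 and 1.49 CPM to 4.21, 3.27 and 2.32 CPM, with the first untreated library inside the treated range. It rose by 0.90 on the log2 scale (SE 0.323, adjusted p = 0.0226), where 46% of genes were called, 25.8% higher and 20.2% lower. This call was lost without treated replicate 1 (0.67, adjusted p = 0.131), untreated replicate 2 (0.71, adjusted p = 0.115) or untreated replicate 3 (0.79, adjusted p = 0.0872). In WAPL-NIPBL cells it went from 1.04, 0.846 and 1.01 CPM to 3.42, 1.47 and 2.32 CPM without overlap, and rose by 1.29 on the log2 scale (SE 0.367, adjusted p = 0.0233). This call was lost without any of the 3 untreated libraries, treated replicate 1 or treated replicate 3, with changes from 0.99 to 1.35 and adjusted p from 0.0541 to 0.146. In PDS5AB-NIPBL cells, on 4 to 17 counts per library, it was 0.179, 0.174 and 0.459 CPM before and 0.364, 0.556 and 0.609 CPM after treatment (log2 change 0.87, SE 0.577, adjusted p = 0.338). Leaving out each library in turn moved that change between 0.62 (without untreated replicate 1) and 1.52 (without untreated replicate 3), and it was not called in any of these fits. In that line 11.4% of genes were called higher.

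Without treatment, Atp1a4 overlapped among PDS5AB (1.75 ± 0.690 CPM), WAPL (2.03 ± 0.709) and TIR1 (1.67 ± 0.455), and was lower in WAPL-NIPBL (0.967 ± 0.106) and PDS5AB-NIPBL (0.271 ± 0.163). Of the 8 male germ line markers, Ddx4, Dazl and Sycp3 were tested, and Prm1, Prm2, Tnp1, Acrv1 and Odf1 were too low. Their sum was 38.6 to 40.6 CPM in untreated and 51.8 to 64.1 CPM in treated TIR1 libraries, against the direction of Atp1a4. In WAPL-NIPBL it was 36.4 to 41.4 against 47.7 to 57.1 CPM, without overlap and in the direction of Atp1a4. In PDS5AB it was 22.2 to 27.2 against 31 to 39.8 CPM, also without overlap and in the direction of Atp1a4. In WAPL (33.9 to 43.1 against 39.9 to 50.1 CPM) and PDS5AB-NIPBL (18.9 to 24.6 against 18.3 to 23 CPM) the sums overlapped. The part of these markers in the Atp1a4 values was not tested.

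The loci differ in how many genes lie around them. Within 500 kb of the 4 genes there were 105 annotated genes, of which 56 were tested. Of these 56, 9 were called in TIR1 (16.1%, against 19.9% of all tested genes), 21 in PDS5AB (37.5% against 46%) and 18 in WAPL (32.1% against 32.8%). In PDS5AB-NIPBL 6 were called (10.7% against 19.5%) and in WAPL-NIPBL 3 (5.36% against 8.57%). In this fit no line had a share above the background. With the replicate number as a block, 10 neighbours were called in PDS5AB-NIPBL (17.9% against 32.1% of all tested genes) and 13 in WAPL-NIPBL (23.2% against 20.9%), so that the WAPL-NIPBL share was then slightly above it. The genes called in all were then 6377 and 4152, against 3874 and 1702 without the block. Within 250 kb the TIR1 share was 21.1%, also just above the background. The counts were 5 in TIR1 without treated replicate 1 or treated replicate 3, and 3 in PDS5AB-NIPBL without treated replicate 1. The WAPL-NIPBL count was 1 without untreated replicate 3, treated replicate 2 or treated replicate 3. The median log2 change over the 56 was -0.01 in TIR1, 0.06 in both WAPL and WAPL-NIPBL, 0.16 in PDS5AB and 0.02 in PDS5AB-NIPBL, against -0.01 to 0.04 over all tested genes.

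Has2 lies in a sparse region. Of 5 annotated genes within 500 kb, only Has2os, a noncoding gene on the opposite strand that overlaps Has2, was tested. It had a mean of 5.33 counts per library and was not called in any line (log2 changes from -0.17 to 1.17, adjusted p from 0.123 to 0.908). Counting ignored strand, so reads of Has2 and Has2os cannot be fully told apart. The next tested gene on the lower side, Sntb1, a syntrophin of the membrane skeleton, was 759 kb away and was called in TIR1 (log2 change 0.67, SE 0.161, adjusted p = 0.00346). With the replicate block Sntb1 was also called in PDS5AB-NIPBL (-0.38, adjusted p = 0.00815, against 0.221 without it).

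At the Atp1a4 locus 23 genes were tested within 500 kb, and 10 were called in WAPL, 9 higher and 1 lower (43.5%, against 32.8% of all tested genes). Within 1000 kb the WAPL share was 32.6%. In PDS5AB 7 of the 23 were called, all higher (30.4% against 46%), and in TIR1 5, 2 higher and 3 lower (21.7% against 19.9%, but 18.6% within 1000 kb). Both NIPBL lines had 2 called, all higher (8.7%, against 19.5% in PDS5AB-NIPBL and 8.57% in WAPL-NIPBL), and the WAPL-NIPBL share was 6.98% within 1000 kb. Igsf8, an immunoglobulin-family membrane protein, lies 3.23 kb beyond one end of Atp1a4 and was not called in any line (log2 changes -0.34 to 0.04, adjusted p from 0.0676 to 0.986), but with the replicate block it was called in WAPL (-0.26, adjusted p = 0.00813). Casq1, the calsequestrin that binds calcium in skeletal muscle, lies 3.64 kb beyond the other end, downstream on the same strand. Casq1 was low, with group means from 0.352 to 1.36 CPM, and fell by 1.20 on the log2 scale in TIR1 (SE 0.330, adjusted p = 0.00964) and rose by 0.82 in WAPL (SE 0.291, adjusted p = 0.0303). In PDS5AB its change was -0.02 (SE 0.298, adjusted p = 0.96), in PDS5AB-NIPBL 0.35 (SE 0.390) and in WAPL-NIPBL 0.71 (SE 0.308, adjusted p = 0.167; 0.0985 with the replicate block). Over the 10 group means, log2 CPM of Casq1 and Atp1a4 correlated at r = 0.958, a description of points that share libraries. The Casq1 call in TIR1 was lost without untreated replicate 1 (-0.98, adjusted p = 0.0735) or treated replicate 2 (-1.04, adjusted p = 0.0602). The call in WAPL was lost without untreated replicate 1 (0.76, adjusted p = 0.0971), untreated replicate 2 (0.65, adjusted p = 0.142) or treated replicate 3 (0.62, adjusted p = 0.163). It was also lost without the filter on low counts (adjusted p = 0.0741) and in a fit of these groups alone (adjusted p = 0.0667). Whether reads running past the end of Atp1a4 enter the Casq1 counts was not tested.

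Pea15a, a small adaptor of signalling kinases 16.7 kb from Atp1a4, rose in PDS5AB (1.09), WAPL (0.76) and PDS5AB-NIPBL (0.76) and fell by 0.47 in TIR1 (adjusted p = 0.0138). In WAPL-NIPBL its change of 0.35 was called with the replicate block (adjusted p = 0.00961) and not without it (0.109). The TIR1 call of Pea15a was lost without untreated replicate 1 (-0.30, adjusted p = 0.163) or treated replicate 2 (-0.36, adjusted p = 0.108).

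At the Lrrc15 locus 11 genes were tested within 500 kb, and 8 were called in PDS5AB, 7 higher and 1 lower (72.7%, against 46% of all tested genes). In WAPL 5 were called, 1 higher and 4 lower (45.5% against 32.8%), but within 250 kb 2 of 7 were (28.6%). In PDS5AB-NIPBL 3 of the 11 were called (27.3% against 19.5%, but 14.3% within 250 kb and 16.7% within 1000 kb), in TIR1 2 (18.2% against 19.9%, but 28.6% within 250 kb and 22.2% within 1000 kb) and in WAPL-NIPBL none (0 of 11, against 8.57%). Atp13a3, a transporter of polyamines 29.2 kb away, was the neighbour most like Lrrc15 by correlation over the group means (r = 0.882). Atp13a3 rose by 0.45 in TIR1 (SE 0.119, adjusted p = 0.00755) and fell by 0.47 in WAPL (SE 0.119, adjusted p = 0.00284), with changes of -0.01 in PDS5AB, 0.03 in PDS5AB-NIPBL and -0.18 in WAPL-NIPBL that were not called. With the replicate block the WAPL-NIPBL change was called (adjusted p = 0.0156). The 3 treated WAPL libraries held 102, 180 and 151 CPM of Atp13a3, and without the first of them the change there was -0.26. Its WAPL call was lost in a fit of these groups alone (adjusted p = 0.0952). Gp5, a platelet leucine-rich repeat glycoprotein 24.4 kb away, rose in PDS5AB (log2 change 1.45, SE 0.460, adjusted p = 0.0103) at a mean of only 8.67 counts per library. Tmem44, a membrane protein gene 229 kb away, rose by 0.68 in PDS5AB (SE 0.130, adjusted p = 7.91e-05) and by 0.58 in PDS5AB-NIPBL (SE 0.131, adjusted p = 0.00167), although Lrrc15 was lower in the latter. In WAPL-NIPBL its change of 0.34 was called with the replicate block (adjusted p = 0.00308) and not without it (0.0926). Hes1, a repressor downstream of Notch 202 kb away, rose by 0.23 in PDS5AB (SE 0.0681, adjusted p = 0.00678), a call lost without the filter on low counts (adjusted p = 0.081) and in a fit of these groups alone (adjusted p = 0.0593).

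Around Mobp 21 genes were tested, and 6 were called in PDS5AB, 1 higher and 5 lower (28.6%, against 46% of all tested genes). In WAPL 3 were called (14.3% against 32.8%), in TIR1 2 (9.52% against 19.9%), and 1 in each NIPBL line (4.76%, against 19.5% in PDS5AB-NIPBL and 8.57% in WAPL-NIPBL). Rpsa, a ribosomal protein gene 17.3 kb away and upstream on the same strand, fell by 0.45 in PDS5AB (SE 0.0812, adjusted p = 4.18e-05), a small change beside the -2.84 of Mobp. It also fell by 0.25 in TIR1 (SE 0.0811, adjusted p = 0.0251), where Mobp was higher. That TIR1 call was lost without untreated replicate 2 (-0.20, adjusted p = 0.136), treated replicate 1 (-0.22, adjusted p = 0.114) or treated replicate 3 (-0.25, adjusted p = 0.0637). In WAPL, PDS5AB-NIPBL and WAPL-NIPBL Rpsa had changes from -0.06 to 0.04 and was not called. The nearest tested genes on the other side, Myrip at 120 kb, D830035M03Rik at 309 kb and Eif1b at 311 kb, were not called in any line. With the replicate block Eif1b was called in WAPL-NIPBL (0.19, adjusted p = 0.0498).

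**Figure D3:**
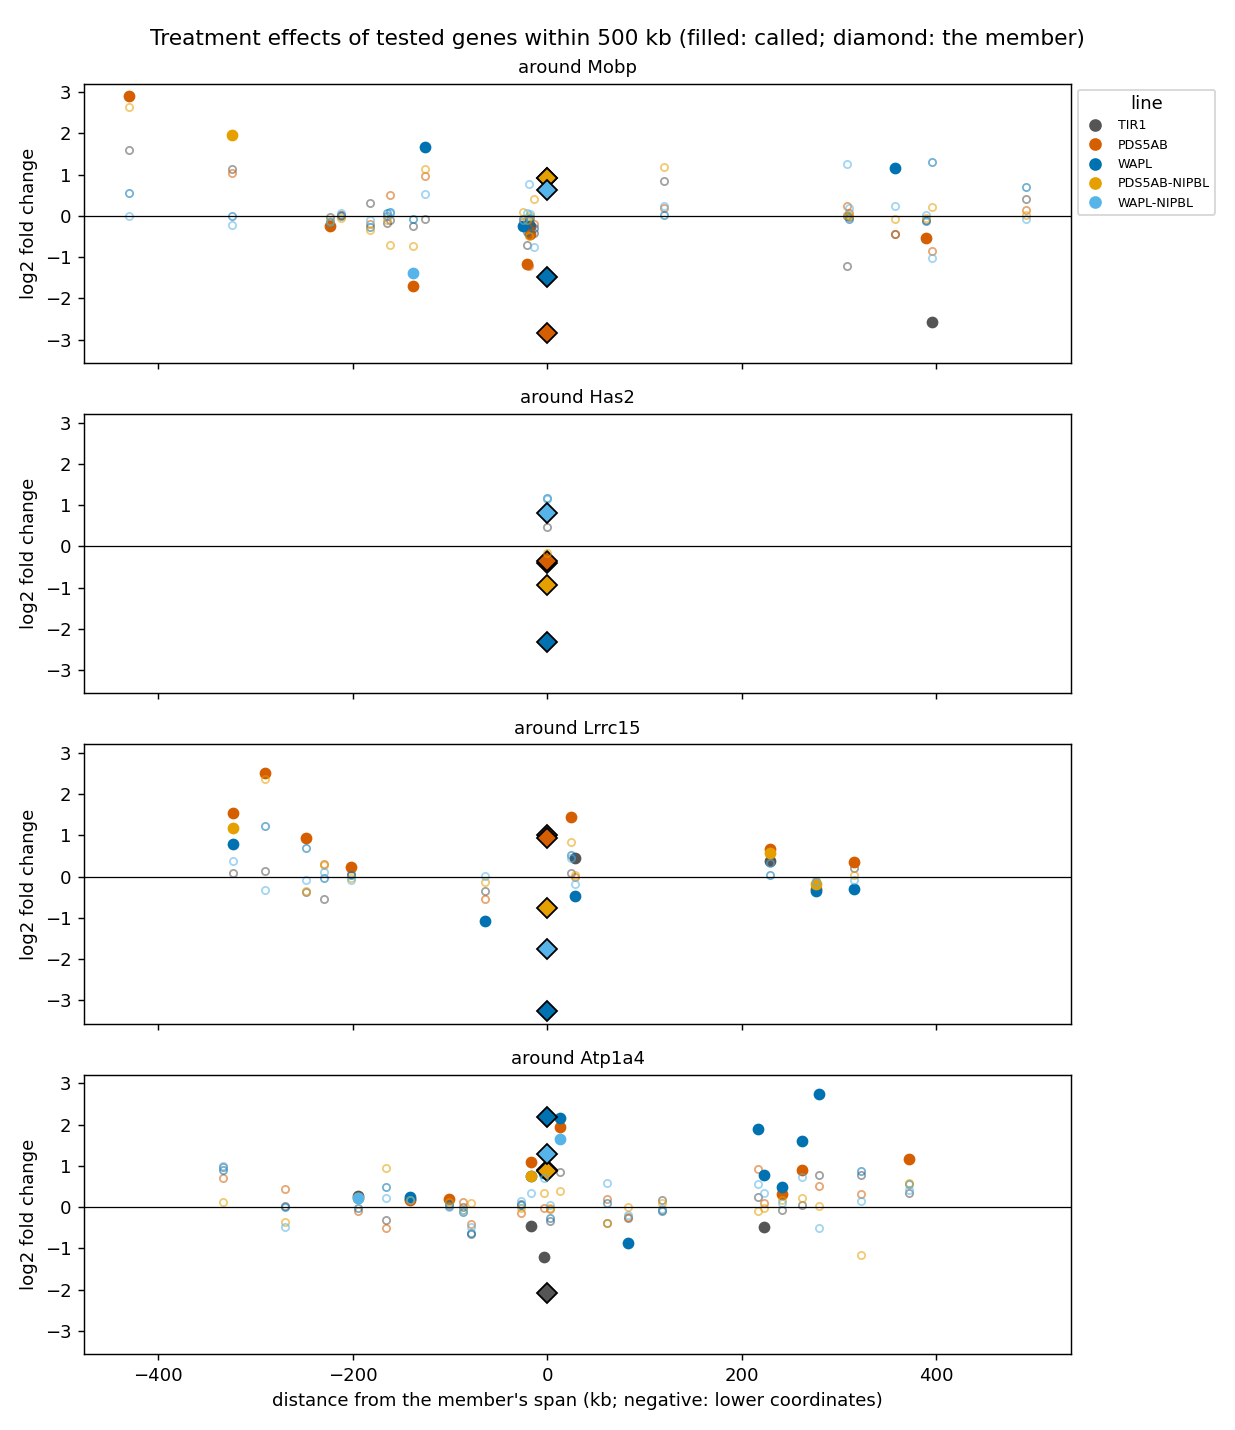
Log2 fold change of treated over untreated cells for every tested gene within 500 kb of each of the 4 genes, against the distance in kb from the gene's span; filled points were called, open points were not, diamonds are the 4 genes themselves. Has2 stands with only Has2os, and 9 of the filled WAPL points around Atp1a4 lie above 0.

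Genes that share a role with the 4 were examined from lists of related genes: 77 were listed and 54 tested. Of these, 15 were called in TIR1 (27.8%, against 19.9% of all tested genes), 32 in PDS5AB (59.3% against 46%) and 12 in PDS5AB-NIPBL (22.2% against 19.5%). In WAPL 23 were called (42.6% against 32.8%), and in WAPL-NIPBL 9 (16.7% against 8.57%). With the replicate number as a block the last count was 20 (37% against 20.9% of all tested genes). The PDS5AB-NIPBL share was close to the background without the block. With the block the PDS5AB-NIPBL share (25.9%) was below its 32.1% and the TIR1 share (31.5%) below its 35.6%, although the numbers do not pair the TIR1 libraries. The lists were chosen with results of these data known.

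Of the 14 myelin genes tested, 4 were called in PDS5AB, 3 higher and 1 lower (28.6%, against 46% of all tested genes). In WAPL 4 were called, 1 higher and 3 lower (28.6% against 32.8%), and in TIR1 4, 2 higher and 2 lower (28.6% against 19.9%). In PDS5AB-NIPBL 1 was lower (7.14% against 19.5%), and in WAPL-NIPBL none was called (0 of 14, against 8.57%). Mbp also rose in TIR1, by 1.20 (SE 0.156, adjusted p = 2.12e-06). Mal, a lipid raft protein of myelin and epithelia, rose by 2.53 in TIR1 (SE 0.159, adjusted p = 2.85e-12) and fell by 0.83 in WAPL (SE 0.162, adjusted p = 0.000183), the directions of Mobp in these lines. Pmp22, a protein of peripheral myelin, rose by 1.26 in PDS5AB (SE 0.270, adjusted p = 0.00031), where Mobp fell. With the replicate block Pmp22 was also called in WAPL (0.89, adjusted p = 0.0209, against 0.0663 without it). Beside its falls in PDS5AB and WAPL, Myrf fell by 1.37 in TIR1 (SE 0.163, adjusted p = 5.49e-07) and by 0.61 in PDS5AB-NIPBL (SE 0.156, adjusted p = 0.00514), where Mobp was higher. The PDS5AB-NIPBL call was lost without treated replicate 3 (-0.51, adjusted p = 0.0514). In WAPL-NIPBL the Myrf change of -0.46 was called with the replicate block (adjusted p = 0.00236) and not without it (0.0604).

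Of the 14 hyaluronan genes tested, 8 rose and 2 fell in PDS5AB (71.4% called, against 46% of all tested genes), and 6 rose and 1 fell in WAPL (50% against 32.8%). In PDS5AB-NIPBL 4 rose and 1 fell (35.7% against 19.5%), in TIR1 4 rose (28.6% against 19.9%), and in WAPL-NIPBL 1 rose and 1 fell (14.3% against 8.57%). Has3, the other synthase tested, was not called in any line, with group means from 3.46 to 6.09 CPM. Cd44, the main hyaluronan receptor, rose by 2.11 in PDS5AB (SE 0.232, adjusted p = 1.34e-08), by 1.71 in WAPL (SE 0.253, adjusted p = 3.96e-06) and by 1.93 in PDS5AB-NIPBL (SE 0.310, adjusted p = 2.94e-05). Hyal1, an enzyme that degrades hyaluronan, rose in these lines too, by 1.18, 0.94 and 0.89, and by 0.55 in TIR1 (adjusted p = 0.000507). With the replicate block, Cd44 (1.05, adjusted p = 0.0223) and Hyal1 (0.27, adjusted p = 0.0167) were called in WAPL-NIPBL too. Tnfaip6, a hyaluronan-binding matrix protein, rose by 1.45 in PDS5AB (SE 0.212, adjusted p = 1.84e-06) and fell by 1.22 in WAPL-NIPBL (SE 0.256, adjusted p = 0.00187), where Has2 was higher.

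Of the 13 leucine-rich repeat and fibroblast genes tested, 8 rose in PDS5AB (61.5% called, against 46% of all tested genes), and 4 rose and 2 fell in WAPL (46.2% against 32.8%). In PDS5AB-NIPBL 3 rose and 1 fell (30.8% against 19.5%), in TIR1 1 rose and 1 fell (15.4% against 19.9%), and in WAPL-NIPBL 1 rose (7.69% against 8.57%). Col1a1, the alpha chain of type I collagen, moved as Lrrc15 did in both of these lines: it rose by 1.02 in PDS5AB (SE 0.188, adjusted p = 4.95e-05) and fell by 1.39 in WAPL (SE 0.192, adjusted p = 1.33e-06). In PDS5AB-NIPBL, where Lrrc15 fell, Col1a1 rose by 0.81 (SE 0.194, adjusted p = 0.00277). Col11a1, the alpha chain of a minor fibrillar collagen, fell with Lrrc15 in PDS5AB-NIPBL (log2 change -0.87, SE 0.186, adjusted p = 0.000925) and in WAPL (-0.89, SE 0.196, adjusted p = 0.000633). In WAPL-NIPBL its change of -0.50 was called with the replicate block (-0.51, adjusted p = 0.0213) and not without it (0.122), and in PDS5AB, where Lrrc15 was higher after auxin, it was 0.16 (adjusted p = 0.507). Thbs2, a matrix thrombospondin, rose in all 4 degron lines, by 2.80 in WAPL, 2.07 in WAPL-NIPBL, 1.70 in PDS5AB-NIPBL and 1.54 in PDS5AB. Its group means were low, from 0.102 CPM in untreated WAPL-NIPBL (0.443 CPM after treatment) to 2.38 CPM in treated PDS5AB. Its WAPL-NIPBL change was 1.64 without untreated replicate 2 and 2.78 without untreated replicate 3, and stayed called. Lrrc32, a leucine-rich repeat protein that holds latent TGF-beta, rose by 2.30 in PDS5AB (SE 0.526, adjusted p = 0.000605) and by 2.45 in WAPL (SE 0.668, adjusted p = 0.00494). Its group means were low, 0.273 CPM before and 1.32 CPM after auxin in PDS5AB, and 0.111 and 0.594 CPM in WAPL. The WAPL change of Lrrc32 was 1.82 without untreated replicate 1 and 3.02 without untreated replicate 2, and stayed called.

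Of the 13 sodium pump genes tested, 8 rose and 2 fell in PDS5AB (76.9% called, against 46% of all tested genes), and 2 rose and 4 fell in WAPL (46.2% against 32.8%). In WAPL-NIPBL 3 rose and 3 fell (46.2% against 8.57%), in TIR1 2 rose and 3 fell (38.5% against 19.9%), and in PDS5AB-NIPBL 1 rose and 1 fell (15.4% against 19.5%). Fxyd5, a small pump regulator, rose by 1.04 in PDS5AB (SE 0.203, adjusted p = 0.00011), where Atp1a4 rose too. Atp12a, a related potassium pump, rose in all 5 lines, TIR1 included, by 1.16 to 1.50 on the log2 scale. Atp1b3, a beta subunit, fell in the 4 degron lines, by 0.45 in both PDS5AB and WAPL, 0.29 in WAPL-NIPBL and 0.42 in PDS5AB-NIPBL.

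The genes most like each of the 4 were found by Pearson's r of log2 CPM over the 10 group means, among genes averaging 50 counts or more per library. These are descriptions, since the genes were picked for their likeness. Gata2, a transcription factor of blood stem cells and trophoblast, was most like Lrrc15 (r = 0.952) and lies on chromosome 6. Its log2 treatment changes were 0.89 in TIR1, 0.76 in PDS5AB, -0.91 in PDS5AB-NIPBL, -1.66 in WAPL and -1.23 in WAPL-NIPBL. Each has the sign of the Lrrc15 change in that line. Arih2 (r = 0.945) and Peak1 (r = 0.943) followed, with smaller changes from -0.65 to 0.32.

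Mobp was most like Pafah1b2 (r = 0.966), Cdk10 (0.963) and Morf4l2 (0.963), whose changes stayed between -0.52 and 0.18. Has2 was most like Tbc1d7 (0.961), Serpinb6a (0.957) and Saal1 (0.947), whose changes lay between -0.57 and 0.07. Atp1a4 was most like Folr1 (0.961), F8a (0.943) and Klk1 (0.934). Klk1, a kallikrein protease, had changes of -0.53 in TIR1, 0.77 in PDS5AB and 1.05 in WAPL, the signs of Atp1a4. When r was taken over the 30 libraries, 1 of 3 most-like genes was the same for Mobp, 1 for Has2, 2 for Lrrc15 and 0 for Atp1a4.

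**Figure D4:**
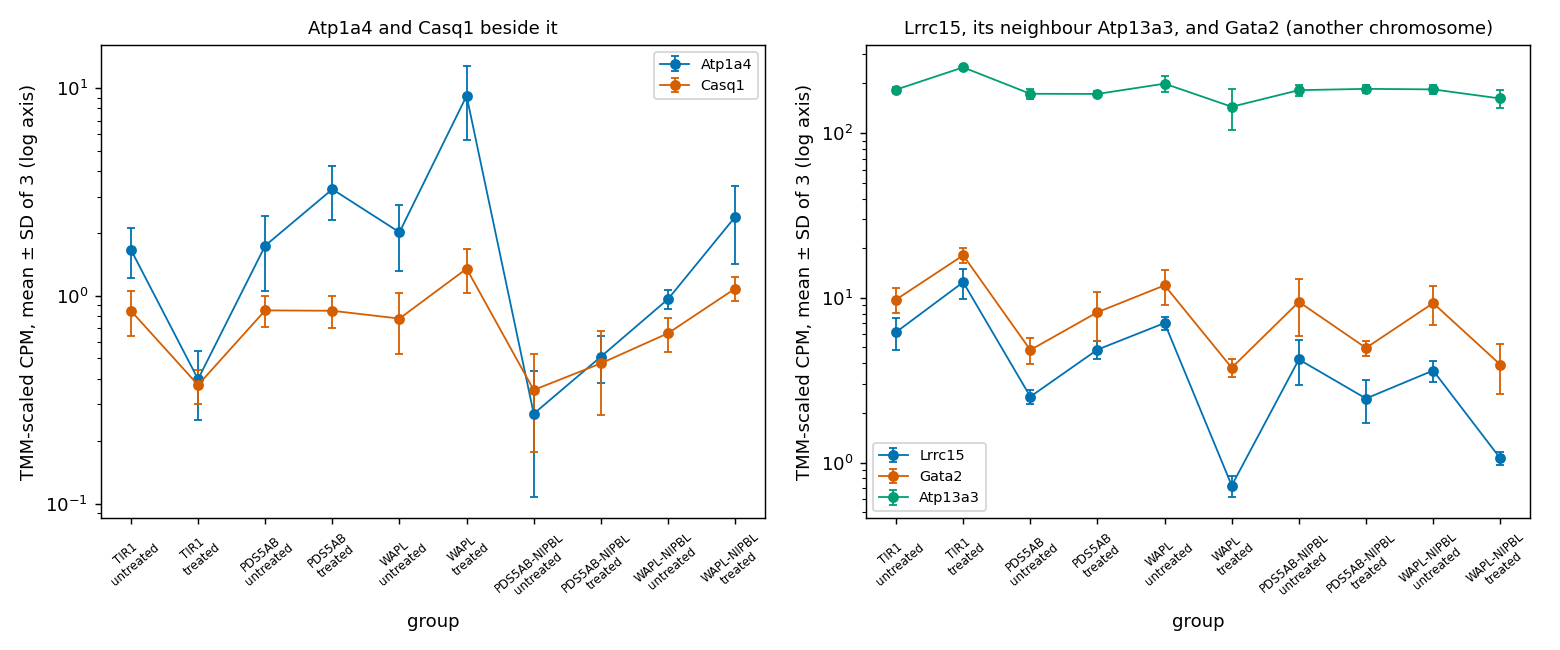
Group means of TMM-scaled CPM with SD of 3 libraries on a log axis, over the 10 groups, for Atp1a4 with Casq1 beside it (left) and for Lrrc15 with its neighbour Atp13a3 and with Gata2 from another chromosome (right). Casq1 is at its highest mean, 1.36 CPM, in treated WAPL cells, as Atp1a4 is, and Gata2 goes up and down with Lrrc15 within each line.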

How the data were processed

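Polyadenylated RNA from 30 libraries (10 groups of 3) was analysed from the deposited table of raw counts per gene. Per the file headers, the authors counted read pairs with featureCounts 2.0.1 on GENCODE vM23 (GRCm38) without a strand option, so antisense genes share reads. The submitters' processing notes name STAR 2.7.7a. The labels describe a stranded kit. Of 55421 genes, 55154 identifiers (99.5%) matched a symbol. Depth ran from 19632704 to 45539021 counts per library, which limits the precision of genes with few counts.

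Counts were tested with edgeR 4.0.16 (R 4.3.3): all 30 libraries, a mean per group, 20 residual degrees of freedom, filterByExpr with a minimum count of 10, TMM scaling, quasi-likelihood F-test, Benjamini-Hochberg adjustment over 19868 genes, call at an adjusted p under 0.05. CPM values are TMM-scaled. The script was tested on simulated data. The genes and lists were chosen with earlier results of these data known. Where the difference between 2 lines was the largest in its direction, higher or lower, for a gene (ranked over called genes averaging 50 counts or more), neither line's response was tested for it. For Mobp this bars more lines than first planned.

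The naming rule took the 4 genes, overlapping genes and the 3 nearest tested genes on each side, related genes reaching 1 CPM (the 3 largest called changes first), and the 3 most alike genes. Related genes beyond those 3 were chosen after their values were seen. Some genes that met the rule are not reported here. Same-numbered replicates of the 4 degron lines deviated together in their treatment effects (r from 0.109 to 0.333 in every pair), so the numbers pair them. They did not in TIR1 (-0.0102 to 0.0574). The alternatives were DESeq2 1.42.0, RLE size factors, fits of the compared groups alone, no filter on low counts, a replicate block, windows of 250 and 1000 kb, and leaving out each library.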

Additional observations from a re-analysis of the deposited data

Results flagged for a closer look

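For some of the genes beside the 4 loci, the change after treatment differed between lines by a test of the difference itself (edgeR's quasi-likelihood test, adjusted over all tested genes). Most of the differences tested for the neighbours were not called. The share of all tested genes called in these differences is not given here, so the calls are not set against a background. Responses of 10 pairs of lines were compared, and pairs of lines that share a response are not independent.

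Beside Lrrc15, Atp13a3 differed from TIR1 by -0.91 on the log2 scale in WAPL (adjusted p = 0.000177), by -0.63 in WAPL-NIPBL (adjusted p = 0.0199) and by -0.45 in PDS5AB (adjusted p = 0.0443), with -0.42 in PDS5AB-NIPBL not called (adjusted p = 0.115). Tmem44, 229 kb from Lrrc15, differed by 0.63 between PDS5AB and WAPL (adjusted p = 0.0205). Hes1 differed by -0.31 between WAPL-NIPBL and PDS5AB (adjusted p = 0.0252).

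Beside Atp1a4, Casq1 differed from TIR1 by 2.02 in WAPL (adjusted p = 0.00112), 1.92 in WAPL-NIPBL (adjusted p = 0.00761) and 1.18 in PDS5AB (adjusted p = 0.0487). Its difference in PDS5AB-NIPBL was 1.55, and missed the threshold (adjusted p = 0.0503). Pea15a differed from TIR1 by 1.56 in PDS5AB (adjusted p = 3.51e-07), 1.23 in WAPL (adjusted p = 1.73e-05), 1.23 in PDS5AB-NIPBL (adjusted p = 7.93e-05) and 0.82 in WAPL-NIPBL (adjusted p = 0.00699). It differed by -0.73 between WAPL-NIPBL and PDS5AB (adjusted p = 0.00551). Every difference from TIR1 uses a response that crosses the library-number break, and the 2 cannot be told apart there.

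Rpsa, beside Mobp, responded differently in PDS5AB than in PDS5AB-NIPBL (0.46, adjusted p = 0.00929), WAPL-NIPBL (0.49, adjusted p = 0.00309) and WAPL (-0.38 as PDS5AB minus WAPL, adjusted p = 0.0249). Sntb1, 759 kb from Has2, differed from TIR1 by -1.04 in PDS5AB-NIPBL (adjusted p = 0.00854) and -0.66 in PDS5AB (adjusted p = 0.0422). Its differences of -0.66 in WAPL-NIPBL (adjusted p = 0.0827) and -0.58 in WAPL (adjusted p = 0.0712) were not called.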

How the results depend on the processing

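Of 1661 alternatives over 154 values, 1469 were counted as the same, 157 lost the call, 35 moved and no change reversed. For a tested change, the same means that direction and call were kept. For a count of genes it means within a set fold of the main count. For a described change it means the same sign, within the SD between replicates. The lists of most-like genes were always counted as moved. The Mobp fall in WAPL kept its call in all 11 alternatives (adjusted p from 3.61e-36 to 7.7e-05). So did the Lrrc15 changes in TIR1 and WAPL-NIPBL and the lower untreated Has2 of both PDS5AB lines. These Mobp and Lrrc15 responses may have been seen in the choice of the genes. Their kept calls are therefore not independent evidence of opposite directions. Neighbours called in 1000 kb were 18 in TIR1, 38 in PDS5AB, 12 in PDS5AB-NIPBL, 28 in WAPL and 5 in WAPL-NIPBL, and in 250 kb 13 in PDS5AB and 3 in PDS5AB-NIPBL, since the window sets how many genes are tested. They were 3 in PDS5AB-NIPBL without a filter, 5 in WAPL-NIPBL by DESeq2 and 11 in WAPL in a fit of those groups alone. The Has2 fall in PDS5AB-NIPBL (-0.93 without a filter, -0.92 in the groups alone) and the Lrrc15 fall there (-0.77) and lower untreated level (-0.55), both in the groups alone, lost their calls. The cause was not tested. Some treated libraries held fewer than 20 counts of Has2 or Atp1a4, which limits the precision of their changes.

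With a replicate block, the genes called rose to 7065 in TIR1, 6377 in PDS5AB-NIPBL and 4152 in WAPL-NIPBL, their neighbours to 14, 10 and 13, and related genes in WAPL-NIPBL to 20. It changed no call of the 4 genes and, in the degron lines, ended none of the named genes' calls. In TIR1, 2 of 6 libraries correlated best with their own number.

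Leaving out a library gave log2 ranges of 0.67 to 1.25 (Atp1a4, PDS5AB), 0.99 to 1.56 (Atp1a4, WAPL-NIPBL), 0.62 to 1.52 (Atp1a4, PDS5AB-NIPBL), -1.04 to -0.81 (Has2, PDS5AB-NIPBL), 0.70 to 1.01 (Has2, WAPL-NIPBL), -3.06 to -2.67 (Mobp, PDS5AB) and 0.78 to 1.07 (Mobp, PDS5AB-NIPBL). For Lrrc15 they were -0.99 to -0.55 (PDS5AB-NIPBL response), -0.74 to -0.32 and -0.88 to -0.58 (untreated PDS5AB-NIPBL and WAPL-NIPBL against TIR1). Neighbours called ranged from 5 to 8 in TIR1, 3 to 6 in PDS5AB-NIPBL and 1 to 4 in WAPL-NIPBL. Genes called in untreated WAPL against untreated TIR1 ranged from 1599 (without untreated WAPL replicate 2) to 2641, against 2785 with all libraries, and were 1621 without untreated TIR1 replicate 2.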
